A study of Mus musculus with 4 samples.

Results

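Smooth muscle cells contract with a set of proteins that most other cells make little of, and the 10 genes described here encode that set: Acta2, Actg2, Myh11, Tagln, Cnn1, Des, Mylk, Lmod1, Smtn and Tpm2. They were taken by symbol from the 31017 gene symbols of the deposited matrices, and all 10 were found. The libraries were droplet single-cell RNA sequencing of testis from Acr-Gfp transgenic C57BL/6 mice, a strain whose transgene the cultured and the uncultured tissue both carry. There were 4 libraries, 1 per group: decapsulated testis fragments from pups of 7 days postpartum (dpp) in organ culture for 2 days (the short culture) or for 7 days (the long culture), and uncultured testis from pups of 9 dpp or 14 dpp. The fragments lay on agarose gel partly in medium with AlbuMAX, a lipid-rich albumin, under a ceiling chip of the silicone PDMS. Collagenase and then trypsin freed the cells. Age plus time in culture matches the short culture with 9 dpp (the early pair) and the long culture with 14 dpp (the late pair). The number of animals behind a library is not given in the sources used here.

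In smooth muscle, myosin filaments pull on actin filaments. Calcium acting through calmodulin switches on myosin light chain kinase, and phosphorylation of the light chain starts the pull. In the testis the main cells of this kind are the peritubular myoid cells, flat cells that wrap the seminiferous tubules and move their contents, and the mural cells (pericytes and vascular smooth muscle) around blood vessels. The serum response factor SRF, with its coactivator myocardin, drives most of these genes through a short element named the CArG box.

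Promoter windows were at hand in RefSeq (GRCm38.p6, 250 bases before to 50 after each start) for 7 of the 10 genes. No exact CArG box lay in these 7 windows, against 1.63% of all 32851 windows. With 1 mismatch allowed, 2 of the 7 held a match, Acta2 and Lmod1, against 21.1% of all windows. Both held 2 matches, as did 3.70% of all windows. The motif reads the same on both strands. With a mismatch allowed these are matches by sequence alone, and no data on binding were collected here. The 4 matches are shown because Acta2 and Lmod1 recur below, each 5′ to 3′ on the gene's strand with 10 flanking bases and the match in capitals.
Acta2, 84 bases before the start, chr19:34255438-34255467, minus strand: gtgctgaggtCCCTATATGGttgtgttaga
Acta2, 34 bases before the start, chr19:34255388-34255417, minus strand: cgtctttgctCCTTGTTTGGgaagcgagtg
Lmod1, 189 bases before the start, chr1:135324614-135324643, plus strand: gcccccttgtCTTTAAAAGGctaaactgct
Lmod1, 164 bases before the start, chr1:135324639-135324668, plus strand: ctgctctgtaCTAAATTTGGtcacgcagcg
GENCODE M21 places the start of Acta2 further upstream than RefSeq, so both Acta2 windows lie in the first GENCODE exon.

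After filtering, 6879 cells remained in the short culture, 4817 in the long culture, 5146 at 9 dpp and 6219 at 14 dpp, with 32072511 to 57503743 unique molecular identifiers (UMIs, 1 per captured RNA molecule). The kit reads the 3′ end of the RNA, so a level in UMIs does not scale with gene length. Levels are given as CPM, the share of the gene in all UMIs of the cells named on the usual counts-per-million scale, with exact Poisson intervals at 95%. Between 29 and 74 kept cell barcodes were shared by any pair of libraries. With 1 library per group, no difference between groups has a replicate check, culture cannot be told apart from the library, and intervals cover counting error only.

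Over whole libraries Cnn1 and Actg2 were lower in the short culture than at 9 dpp, and the other 8 genes differed by less than 2-fold in both pairs. With each cell weighted equally, Myh11 (−1.19) and Mylk (−1.04) were lower in the early pair as well. A gene is called higher or lower when the ratio of CPM plus 1 is at least 2-fold. In the early pair 2 of the 10 genes were lower and 0 were higher, where 3.41% of 16622 genes were lower and 4.20% higher. In the late pair 0 of 10 were lower or higher, where 2.65% were lower and 3.58% higher. The median log2 ratio of the 10 genes was −0.50 in the early pair and −0.16 in the late pair, beside −0.12 and 0.00 over all genes. TMM factors put the early median of all genes at 0.02, and the ratios below are to be read against that shift. In the long against the short culture 1 of 10 was higher, Cnn1 at 1.24, and 1 lower, Tagln at −1.13, where 4.51% and 2.37% of genes were. From 9 to 14 dpp 0 of 10 were higher or lower, where 4.08% and 1.97% were. The CPM of a whole library does not tell fewer cells of a type from less RNA per cell. The gate used below is cut on 2 of the 10 genes, so it does not separate them either.

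Acta2 (chromosome 19, 34241090 to 34255590), the smooth muscle actin, was the most abundant of the 10 in every library and made up 59.3% to 63.2% of their summed UMIs. Its level was 780 CPM in the short culture, 722 in the long culture, 1095 at 9 dpp and 806 at 14 dpp. Actg2 (chromosome 6, 83512905 to 83536265) encodes the enteric form of smooth muscle actin, whose coding sequence is nearly the same, so the split of reads between them is uncertain. Actg2 stood at 8.89 and 9.96 CPM in the 2-day and long cultures and at 24.2 and 20.9 CPM at 9 and 14 dpp, log2 ratios of −1.35 and −1.0, the latter just inside the threshold. Both cultures lay below both in vivo libraries, with intervals that did not overlap.

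Cnn1 (chromosome 9, 22099216 to 22109630) encodes calponin, an actin-bound brake on myosin. It stood at 7.36 CPM in the short culture (6.45 to 8.36), 18.8 in the long culture, 30.4 at 9 dpp and 20.9 at 14 dpp. Its log2 ratio was −1.91 in the early pair and −0.15 in the late pair, so the short culture alone stood far below the rest. Tagln (chromosome 9, 45929619 to 45936058), for the actin-bundling protein SM22, went the other way, at 168, 76.5, 108 and 78.3 CPM in the order short culture, long culture, 9 dpp and 14 dpp, a log2 ratio of 0.64 in the early pair. With each cell weighted equally that ratio was −0.07.

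**Figure D1:**
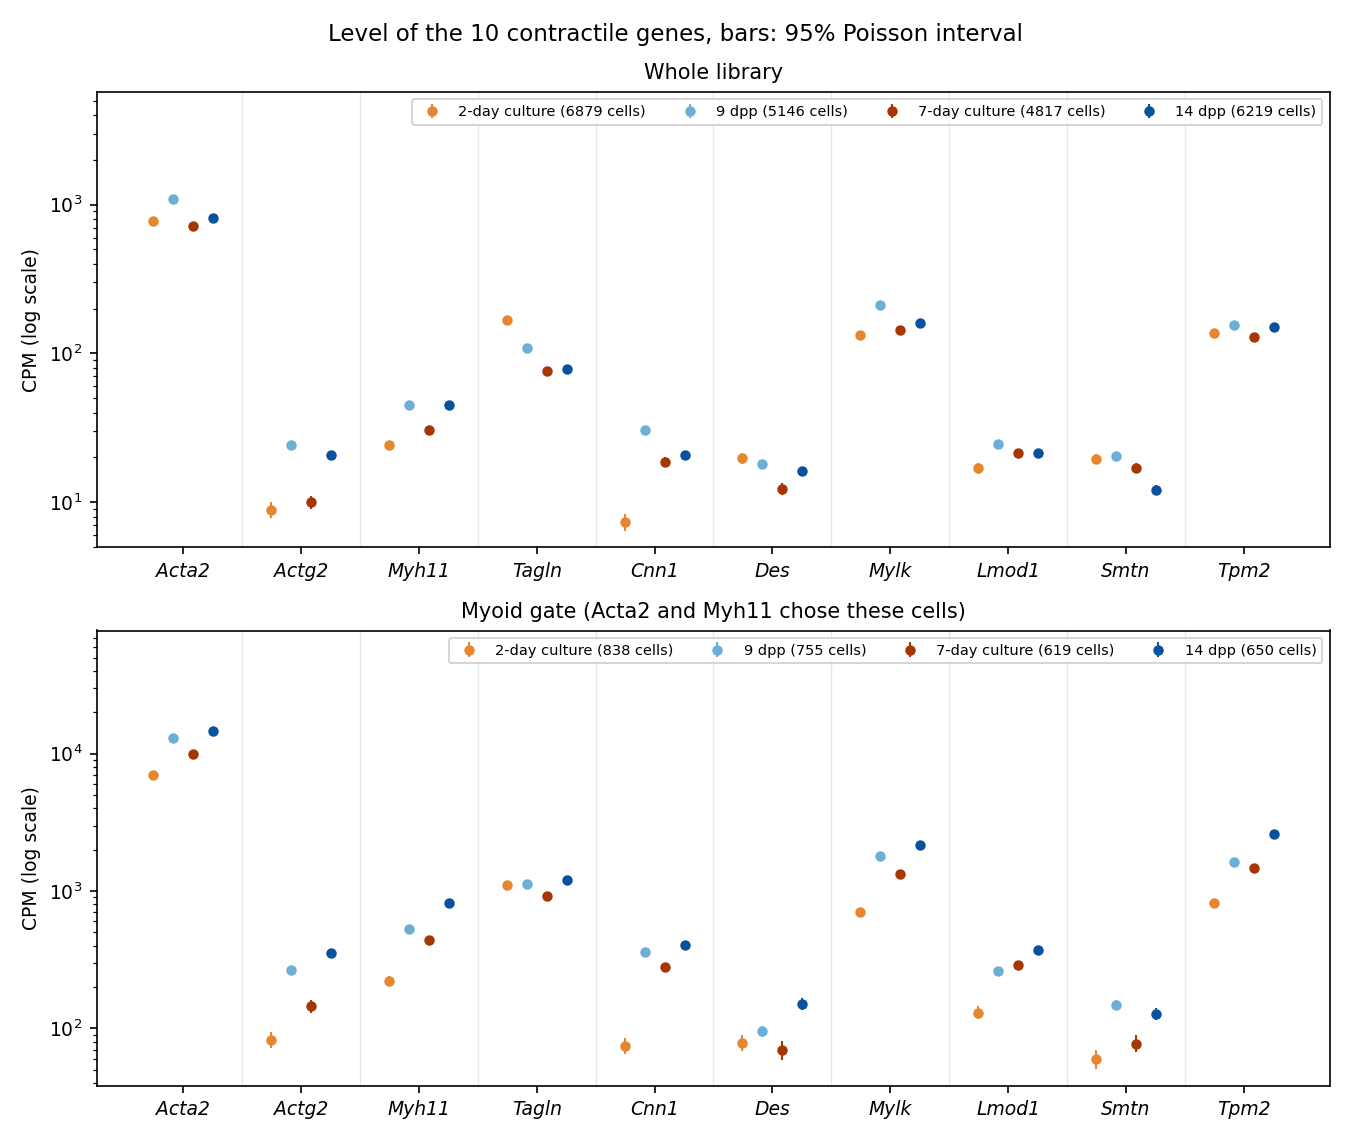
Level of each gene in CPM (log axis) in whole libraries (upper panel) and in myoid-gated cells (lower panel), one point per library (the short culture is the 2-day and the long culture the 7-day one), with 95% Poisson intervals as bars. Cnn1 and Actg2 in the short culture sit lowest in the upper panel, and in the lower panel each culture point lies below its in vivo partner, with Tagln of the early pair nearly level.

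The cells that carry the program were gated with the genes themselves. A cell was in the Acta2 and Myh11 gate when these 2 genes gave at least 0.3% of its UMIs. Gated cells with 2 or fewer UMIs of the pericyte genes Rgs5 and Notch3 formed the myoid gate and those with 5 or more the mural gate, which left 1 to 9 cells per library between them. The myoid gate held 838 cells of the short culture (12.2%, exact Clopper-Pearson interval 11.4% to 13.0%) and 755 of the testis of 9 dpp (14.7%, 13.7% to 15.7%). It held 619 of the long culture (12.9%, 11.9% to 13.8%) and 650 of the testis of 14 dpp (10.5%, 9.70% to 11.2%). The log2 ratio of shares was −0.27 (−0.40 to −0.14) in the early pair and 0.30 (0.15 to 0.45) in the late pair.

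The gate cut a continuum in the short culture, a shallow dip in the long culture and a gap in vivo. The median share of Acta2 and Myh11 in a myoid-gated cell was 0.632% and 1.0% in the short and long cultures and 1.34% and 1.52% in the younger and older testis. In the short culture 83 cells lay between 0.25% and 0.3% and 82 between 0.3% and 0.35%. The same bands held 20 and 23 cells in the long culture, 8 and 5 at 9 dpp, and 2 and 5 at 14 dpp. With the gate at 0.15% the log2 ratio of shares in the early pair was 0.12, and at 0.6% it was −1.10, so the direction rests on the cut. In the late pair the 2 cuts gave 0.45 and 0.05.

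**Figure D2:**
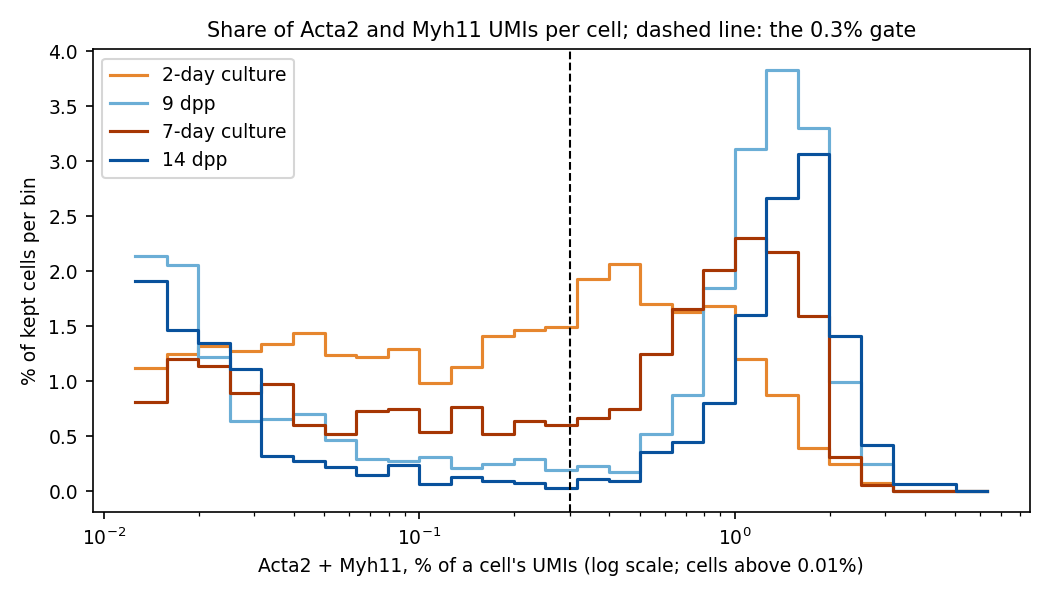
Percent of kept cells (vertical axis) by the share of a cell's UMIs from Acta2 and Myh11 (horizontal log axis), one line per library, for cells above 0.01%, with the gate at 0.3% as a dashed line. The in vivo lines drop close to 0 around the dashed line, and the line of the short culture does not.

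The label of the gate was checked against markers that are not among the 10 genes. All 7 other myoid markers (such as Myl9, Cald1 and Tpm1) were detected in myoid-gated cells of each library, with summed levels of 4739, 7219, 9438 and 10554 CPM in the short culture, the long culture, 9 dpp and 14 dpp. The same myoid markers summed to 17941 and 19196 CPM in the mural gate at 9 and 14 dpp. Their sum therefore does not tell myoid from mural cells. The 12 mural markers summed to 276 to 396 CPM in the myoid gate, against 85.6 to 154 CPM in the whole libraries. In the mural gate they summed to 4472 and 4480 CPM at 9 and 14 dpp. Most gated cells fell in different clusters in culture and in vivo when cells were clustered without the 10 genes. In culture, 749 and 592 of the gated cells were in a stromal-like cluster led by Igfbp5, Mgp and Bgn, and in vivo 744 and 632 were in an unnamed cluster led by Tnnt2, Asb2 and Tbata. The 12 stromal markers summed to 8875 to 10122 CPM in the gate in all 4 libraries, and their part in the results was not tested.

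Within myoid-gated cells Cnn1, Actg2, Mylk, Smtn and Lmod1 were lower in the early pair, and Actg2 and Des in the late pair. Acta2 and Myh11 chose the cells and are described without a count. Of the other 8 genes, 5 were lower and 0 higher in the early pair, where 6.72% of 10500 genes were lower and 5.14% higher. In the late pair 2 of the 8 were lower and 0 higher, where 3.92% were lower and 4.43% higher. All 8 ratios were below 0 in both pairs, with medians of −1.15 and −0.70 on the log2 scale beside −0.12 and −0.03 over all genes. Markers of other cells differed in the gate too: 12 Sertoli markers summed to 1597 and 1288 CPM in the short and long cultures against 791 and 1213 CPM in vivo, with Fshr at 0 in each library. In each library 0 of these 12 were above their level in the whole library. The 10 Leydig markers summed to 807 and 634 CPM against 388 and 675 CPM, with Lhcgr at 0 in 3 libraries. In the short culture, the long culture, 9 dpp and 14 dpp, 2, 5, 1 and 1 of the 10 were at 0. In the same order 0, 1, 1 and 2 of them were above their level in the whole library. The 5 erythroid markers summed to 2.46 and 0 CPM against 309 and 29.3 CPM. Their part in the results was not tested. Tagln in the early pair, at −0.04, was too close to 0 for its sign to hold: it was 0.02 with TMM factors, 0.10 with the gate at 0.6% and 0.14 with the split on thinned cells. With the gate at 0.6%, which changes the cells of each library, 2 of the 8 genes were lower in the early pair. The cause of that change was not tested.

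Among the thin filament genes, Cnn1 stood furthest apart in the early pair and Actg2 in the late pair. Cnn1 was at 74.8 CPM in the short culture (65.1 to 85.6), 279 in the long culture, 360 at 9 dpp and 402 at 14 dpp. Its log2 ratio was −2.25 in the early pair and −0.52 in the late pair, and from the 2-day to the long culture it was higher by 1.88. After thinning each cell to 1500 UMIs, Cnn1 was seen in 11.3% of gated cells of the short culture, 26.7% of the long culture, 35.8% at 9 dpp and 40.9% at 14 dpp (16.7%, 48.8%, 69.5% and 64.6% unthinned, at median depths of 2768, 3532, 5136 and 3814 UMIs). Germ-like cells, which should lack the gene, gave 0.15%, 0%, 0.20% and 0.22% after thinning, at median depths of 3503 to 10869 UMIs. The thinning left out 53, 19, 13 and 27 gated cells as too shallow.

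Actg2 was at 82.6 and 144 CPM in the 2-day and long cultures and at 268 and 353 CPM at 9 and 14 dpp. It was the one gene lower by 2-fold in both pairs, at −1.68 and −1.28. Lmod1 (chromosome 1, 135324807 to 135368065), which nucleates actin filaments, was at 130 and 289 CPM in the cultures and at 262 and 369 CPM in vivo. Its ratio was −1.0 early and −0.35 late, so the long culture lay between the in vivo libraries. Tpm2 (chromosome 4, 43514711 to 43523765), the tropomyosin that lines actin filaments, was at 813 and 1482 CPM in the cultures and at 1625 and 2592 CPM in vivo. Lmod1 fell just past the 2-fold threshold in the early pair and Tpm2 just short of it, both at −1.0 after rounding, so this difference in call has no weight. Smtn (chromosome 11, 3517523 to 3540612), which encodes the actin-associated smoothelin, was at 59.4 and 77.4 CPM in the cultures and at 148 and 127 CPM in vivo, ratios of −1.30 and −0.71.

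Tagln was the gene that differed least in the early pair. It stood at 1100, 917, 1130 and 1212 CPM in the short culture, the long culture, 9 dpp and 14 dpp, with overlapping intervals in the early pair. It ranked directly after Acta2 in the short culture, and after Tpm2 and Mylk in the other 3 libraries. Pcsk7 lies on the opposite strand across Tagln, and the strand setting of the counting is not given in the sources used here, so reads from the 2 genes cannot be told apart with certainty. The same holds for unnamed transcripts across Des and Mylk.

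Myosin and its switch come next. Myh11 (chromosome 16, 14194535 to 14291372), the smooth muscle myosin heavy chain, was at 222, 438, 530 and 819 CPM in the gate in the same order of libraries, ratios of −1.25 and −0.90 given as a description. Mylk (chromosome 16, 34745210 to 35002420), the myosin light chain kinase, was at 707, 1335, 1798 and 2146 CPM, ratios of −1.35 and −0.69. Mylk was lower by 2-fold in the early pair only. The order of libraries was the same for Mylk, Tpm2, Cnn1 and Actg2: lowest in the short culture, then the long culture, 9 dpp and 14 dpp. Des (chromosome 1, 75360329 to 75368579) encodes desmin, the muscle intermediate filament. It was at 78.3 CPM in the short culture, 69.1 in the long culture, 95 at 9 dpp and 150 at 14 dpp, ratios of −0.27 and −1.11, and was the gene besides Actg2 lower by 2-fold in the late pair.

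The order of levels among the 10 genes was similar in all 4 libraries. In the gate Acta2 made up 64.3% to 68.3% of their UMIs. Myh11 came next after 4 genes in each library, below Acta2, Tpm2, Mylk and Tagln and above the other 5. Actg2, Des and Cnn1 had overlapping intervals with their neighbours in the short culture, as did Lmod1 and Cnn1, and Smtn and Des, in the long culture, Actg2 and Lmod1 at 9 dpp, and Cnn1, Lmod1 and Actg2, and Des and Smtn, at 14 dpp. Between 9 and 14 dpp 0 of the 8 genes differed by 2-fold in the gate, where 2.10% of genes were higher and 3.49% lower, with ratios from −0.22 for Smtn to 0.67 for Tpm2. From the short to the long culture 2 of the 8 were higher, Cnn1 at 1.88 and Lmod1 at 1.14, and 0 lower, where 4.04% and 4.44% were.

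Outside the Acta2 and Myh11 gate Tagln and Tpm2 were higher in culture in both pairs, and Smtn in the late pair. Low levels of Acta2 and Myh11 define these cells, so those 2 are a description. Of the other 8 genes, 2 were higher and 0 lower in the early pair and 3 were higher and 0 lower in the late pair, where 4.96% and 4.27% of 16474 genes were higher and 3.43% and 2.78% lower. From the short to the long culture 2 of the 8 were lower and 0 higher (2.78% and 4.61% of genes), and from 9 to 14 dpp 0 were lower or higher (2.37% and 4.27%). Tagln stood at 77.5 CPM in the short culture and 15.7 CPM in the long culture, against 3.84 and 2.86 CPM at 9 and 14 dpp, log2 ratios of 4.02 and 2.11. Tpm2 was higher in both pairs (1.77 and 1.12), and Smtn was at 0.79 and 1.04. Acta2 was at 1.80 and 1.12, Myh11 at 1.12 and 0.24. Cnn1 was at 0.79, 0.78, 1.44 and 0.82 CPM, with ratios of −0.45 and −0.03. Outside the gate the 12 stromal markers summed to 4011 and 2230 CPM in the short and long cultures. At 9 and 14 dpp they summed to 1650 and 881 CPM, and their part in the results was not tested.

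The gate held a smaller part of most of these genes' UMIs in culture than in vivo. It took up 58.0% of Tagln UMIs in the short culture and 80.9% in the long culture, against 96.7% at 9 dpp and 96.5% at 14 dpp. For Cnn1 it took up 90.3%, 96.1%, 95.7% and 96.3%. For Smtn it took up 27.1% and 30.7% in culture and 61.2% and 56.0% in vivo, and for Tpm2 52.4% and 75.8% against 87.8% and 90.7%.

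Tagln outside the gate was found in stromal clusters and in Sertoli-like cells. In Sertoli-like cells it was at 19.8 and 12.1 CPM in the short and long cultures and at 2.18 and 2.22 CPM in vivo, ratios of 2.71 and 2.02, though these cells fell in different clusters in culture, at 9 dpp and at 14 dpp. In the stromal-like cluster led by Cxcl5, Ly6a and Ccl2, which made up 1360 cells of the short culture, Tagln was at 197 CPM in cells outside the gate. In the stromal-like cluster led by Apoe, C3 and Lum, with 768 cells of the long culture, it was at 77.2 CPM. In the stromal-like cluster led by Clec3b, S100b and Dlk1, with 748 and 438 cells of the in vivo libraries, it was at 5.80 and 1.98 CPM. The stromal-like cluster led by Igfbp5, Mgp and Bgn, which held most gated cells of culture, had ungated cells as well. Of its 1121 and 668 cells in the short and long cultures, 749 and 592 were in the myoid gate. The level of Tagln in its ungated cells is not given here. The clusters closest to stroma were also pooled outside the gate, with the unnamed cluster led by Tnnt2 among them. Des ran against Tagln in this pool, at 30.9 and 28.7 CPM in the cultures and 73.4 and 121 CPM in vivo. Each of these clusters belonged almost wholly to culture or to in vivo tissue, so these are levels of clusters and not of 1 matched cell type. After thinning to 1500 UMIs, Tagln was seen in 18.5% and 6.53% of cells of the same pool in culture, and in 0.54% and 0.24% in vivo (29.2%, 12.5%, 3.32% and 1.81% unthinned, at median depths of 4218, 4601, 6060 and 4578 UMIs). In germ-like cells the thinned share was 0.87%, 0.20%, 0.28% and 0.16%.

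**Figure D3:**
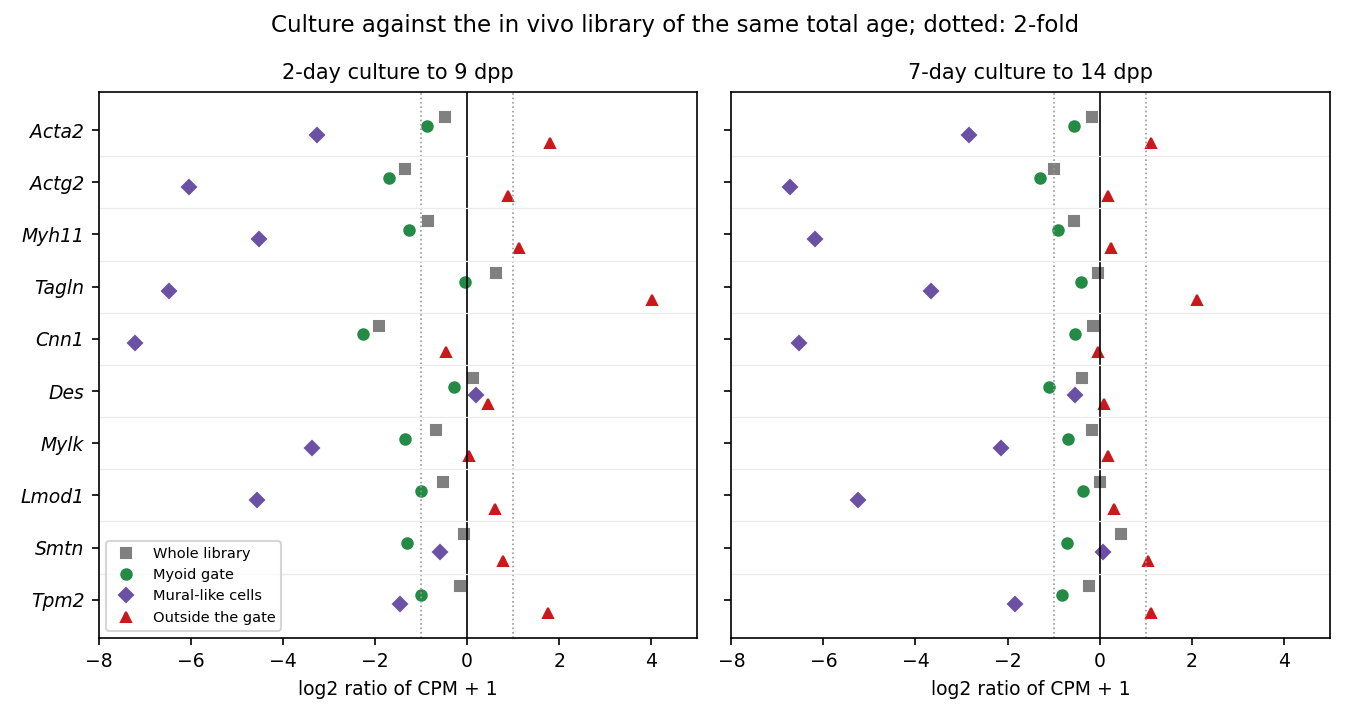
Log2 ratio of CPM plus 1, culture to in vivo (horizontal axis), of each gene in whole libraries, myoid-gated cells, mural-like cells and cells outside the gate, with 2-fold as dotted lines. Myoid-gated cells lie left of 0 or at it, mural-like cells lie left of −1 except for Des and Smtn, and Tagln outside the gate lies furthest right in both panels. Mural-like points of genes with 0 to 3 UMIs in culture (Actg2, Myh11, Cnn1, Lmod1) depend on the added constant.

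The mural gate was nearly empty in culture. It held 0 cells in the short culture (0 of 6879, which allows a share of up to 0.0436% by a limit of 3 cells and 0.0536% by the Clopper-Pearson interval), 2 in the long culture, 25 at 9 dpp and 33 at 14 dpp. Cells with 5 or more UMIs of Rgs5 and Notch3 were present in culture, 4 and 19 cells against 52 and 63 in vivo, and of these 0, 2, 25 and 33 were in the gate. Mural cells of culture were therefore followed by clustering. A mural-like cluster led by Rgs5, Ndufa4l2 and Cox4i2 held 54, 47, 55 and 86 cells in the short culture, the long culture, 9 dpp and 14 dpp. The 12 mural markers besides Rgs5 and Notch3 were all detected in it in each library, with summed levels of 4615, 5015, 6061 and 4953 CPM.

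In these mural-like cells 8 of the 10 genes were lower in culture in both pairs, where 14.1% and 9.03% of 4163 genes were lower, and 0 were higher, where 8.67% and 7.13% were. Of the 8, Actg2, Myh11, Lmod1 and Cnn1 reached the minimum of 50 UMIs only through the in vivo libraries and so had to differ. The other 6 genes had 50 or more UMIs in culture alone, and of these Acta2, Tagln, Mylk and Tpm2 were lower in both pairs. From the short to the long culture 3 of 10 were higher and 0 lower (9.63% and 5.28% of genes), and from 9 to 14 dpp 1 was higher and 1 lower (3.70% and 2.93%). Acta2 was at 763 and 1557 CPM in culture and at 7314 and 11124 CPM in vivo, 9.59-fold and 7.15-fold higher in vivo (8.01 to 11.6 and 6.55 to 7.80). Tagln was at 30.5 CPM in the short culture, 243 in the long culture, 2817 at 9 dpp and 3110 at 14 dpp, 92.3-fold and 12.8-fold higher in vivo (39.4 to 285 and 10.3 to 16.0).

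The motor and the scarcer thin filament genes were close to 0 in mural-like cells of culture. Actg2 had 1 and 2 UMIs in culture against 168 and 264 in vivo, 76.8-fold (13.6 to 3050) and 126-fold (34.5 to 1043) higher in vivo. Myh11 had 2 and 3 UMIs against 108 and 258, ratios of 24.7 (6.67 to 206) and 81.9 (27.7 to 400). Lmod1 had 1 and 2 UMIs against 60 and 94, ratios of 27.4 (4.74 to 1101) and 44.8 (12.0 to 375). Cnn1 had 0 UMIs in both cultures against 53 and 36, and was at least 8.07-fold and 11.4-fold higher in vivo by a floor of 3 UMIs per library, while the exact interval starts lower, at 6.34 and 8.82. All 4 had wide intervals, because so few culture UMIs stood behind them.

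Tpm2 was lower by less, and Des and Smtn were within 2-fold. Mylk, by contrast, was at 61.0 and 214 CPM in culture and 642 and 946 CPM in vivo, ratios of 10.5 (5.61 to 22.2) and 4.43 (3.47 to 5.71). Tpm2 was at 623 and 619 CPM in culture and 1702 and 2204 CPM in vivo, ratios of 2.73 (2.21 to 3.40) and 3.56 (3.08 to 4.13). Des was at 610, 387, 530 and 562 CPM in the short culture, the long culture, 9 dpp and 14 dpp, an in vivo to culture ratio of 0.868 (0.678 to 1.12) and 1.45 (1.17 to 1.80). Smtn was at 159, 123, 240 and 117 CPM, ratios of 1.51 (0.965 to 2.44) and 0.952 (0.619 to 1.47). Mural-like cells of the short culture had a median of 2354.5 UMIs against 5426 at 9 dpp, and those of the long culture 7993 against 3740 at 14 dpp. Single cells with red cell RNA were in the pool: 1 cell held 573 of the 573 erythroid marker UMIs in the short culture and 1 held 2807 of 2815 at 14 dpp, and their part in the results was not tested. The 10 Leydig markers summed to 696 and 996 CPM in the short and long cultures against 176 and 219 CPM at 9 and 14 dpp. Of the 10, 8, 7, 5 and 4 were at 0 in the same order, and the part of these markers was not tested either.

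The 2 kinds of contractile cell could be compared within libraries, since the 9 dpp, 14 dpp and long culture libraries held both gates. UMIs were summed per library and gate and tested with edgeR's quasi-likelihood test with library as a block, over 10579 genes and 7 sums, which leaves 2 residual degrees of freedom. The mural gate of the long culture is 2 cells. Of the 8 genes that did not choose the cells, 1 was higher and 2 were lower in the mural gate at an adjusted p under 0.05, where 4.77% of all genes were higher and 5.20% lower. Their median log2 fold change was 0.07 and that of all genes −0.19.

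Des was the gene higher in mural cells. In the myoid gate it stood at 69.1 CPM in the long culture, 95 at 9 dpp and 150 at 14 dpp, and in the mural gate at 474, 481 and 536 CPM. Its log2 fold change was 1.93 (edgeR, Benjamini-Hochberg adjusted p = 1.0e-07), higher in 3 of 3 libraries. Without the 9 dpp library the edgeR adjusted p was 0.175 and without the 14 dpp library 0.0904, and over 14 settings the adjusted p ran from 5.1e-19 to 0.175. The log2 fold change ran from 1.73 to 2.23 over the same settings.

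Cnn1 and Mylk were lower in mural cells. Cnn1 stood at 277 and 107 CPM in the mural gate at 9 and 14 dpp against 360 and 402 CPM in the myoid gate, and had 0 UMIs in the 2 cells of culture, a log2 fold change of −1.37 (edgeR adjusted p = 0.0034) and lower in 3 of 3 libraries. Mylk stood at 867 and 1254 CPM against 1798 and 2146 CPM, and at 632 against 1335 CPM in the long culture, a log2 fold change of −1.29 (edgeR adjusted p = 0.0123) and lower in 3 of 3. Without library as a block the adjusted p was 0.457 for Cnn1 and 0.249 for Mylk, without 14 dpp it was 0.774 and 0.432, and for Mylk without 9 dpp it was 0.576. DESeq2 gave 0.0750 for Cnn1 and 0.0205 for Mylk.

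Tagln and Actg2 missed the threshold, and their calls depended on the libraries and the gate. Tagln stood at 4671 and 3987 CPM in the mural gate at 9 and 14 dpp against 1130 and 1212 CPM in the myoid gate, but its log2 fold change of 1.11 had an edgeR adjusted p of 0.0528. Actg2 stood at 825 and 804 CPM against 268 and 353 CPM, with 0 UMIs in the 2 cells of the long culture, and its fold change of 0.92 had an edgeR adjusted p of 0.0952. Without the long culture, and so without its 2 mural cells, both passed, Tagln at 1.76 (edgeR adjusted p = 6.4e-43) and Actg2 at 1.28 (edgeR adjusted p = 9.3e-10). Those values rest on mural cells of 2 libraries. The adjusted p of Tagln ran up to 0.969 over the alternatives and that of Actg2 up to 0.999. Both also passed without the short culture (edgeR adjusted p = 0.0195 and 0.0398) and with the gate at 0.6%. Lmod1 (−0.38), Smtn (0.28) and Tpm2 (−0.15) did not pass, with edgeR adjusted p of 0.632, 0.731 and 0.901. Within the mural gate 2 of the 8 genes were lower at 14 than at 9 dpp, Cnn1 at −1.36 and Smtn at −1.14, and 0 higher, where 4.70% and 3.01% of 1362 genes were, from 33 and 25 cells. In the 14 dpp mural gate 1 cell held 2807 of 2811 erythroid marker UMIs, and its part in the results was not tested.

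**Figure D4:**
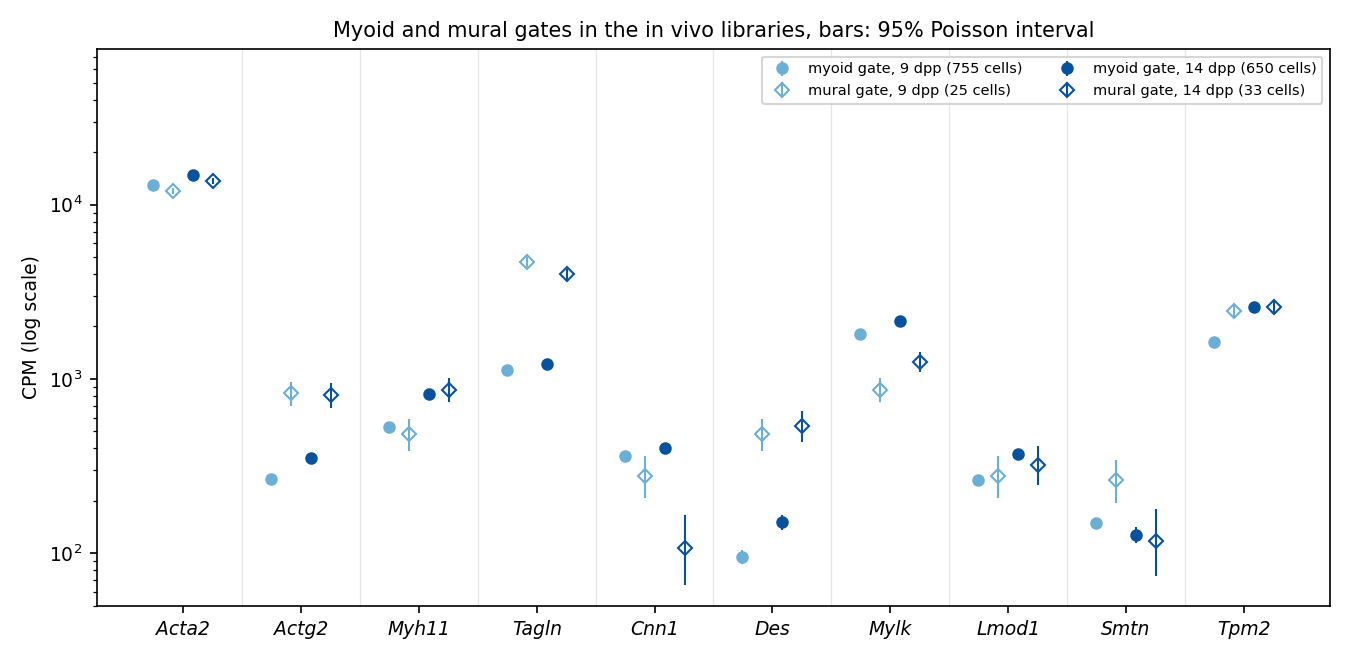
Level of each gene in CPM (log axis) in the myoid gate (filled circles) and the mural gate (open diamonds) at 9 and 14 dpp, with 95% Poisson intervals. The diamonds of Tagln, Actg2 and Des lie above the circles at both ages, and those of Mylk and Cnn1 lie below.

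Some of the 10 genes had a second cell type in the testis. Mylk stood at 137 to 203 CPM in Sertoli-like cells, the nurse cells of the tubule, over the 4 libraries, and the gate took up 47.2% to 68.6% of its UMIs. Smtn stood at 95.1 to 185 CPM in endothelial-like cells over the libraries and at 59.4 to 148 CPM in the myoid gate. These ranges do not compare the 2 within a library. Tpm2 stood at 29.5 to 144 CPM in Leydig-like cells, lowest in the long culture and highest at 14 dpp. Des stood at 73.1 and 123 CPM in the in vivo stromal cluster led by Clec3b. Germ-like cells ranged from 0.24 CPM for Actg2 to 23.6 CPM for Acta2, and their levels are taken as background. None of these levels was tested, since classes come from clustering.

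**Figure D5:**
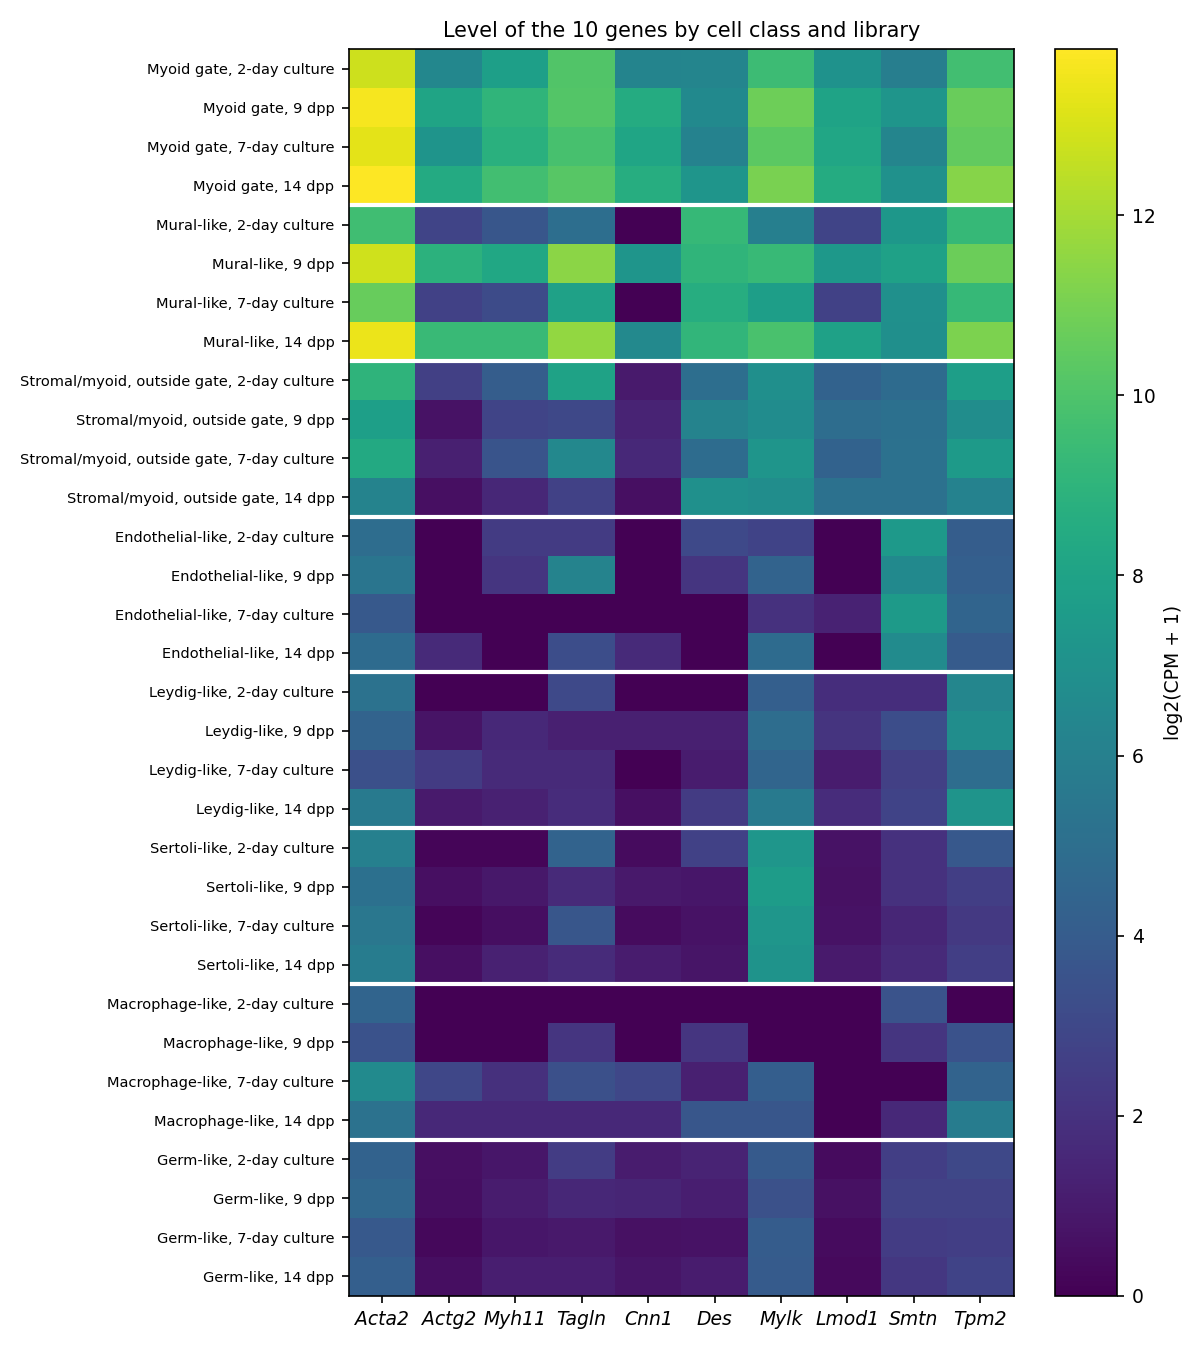
Level of each gene as log2 of CPM plus 1 (colour) by cell class and library. The 8 upper rows (myoid gate and mural-like cells) carry most of the signal, with Mylk in Sertoli-like rows, Smtn in endothelial-like rows and Tpm2 in Leydig-like rows besides.

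Genes that accompany the contractile set were read from 7 lists. In the list of other contractile apparatus genes, 29 of 30 could be measured in the myoid gate. Of these 3 were higher and 2 lower in the early pair and 1 higher and 0 lower in the late pair, with medians of −0.26 and −0.35 on the log2 scale. Over all genes of the gate 5.14% were higher and 6.72% lower in the early pair, and 4.43% and 3.92% in the late pair. In mural-like cells 13 and 15 of 25 were lower and 0 higher, where 14.1% and 9.03% of all genes were lower. Some of the 25 passed the minimum of UMIs mainly through the in vivo libraries, so the count is a description. Myl9, the regulatory light chain that Mylk phosphorylates, was at 342, 617, 5080 and 5843 CPM there in the order short culture, long culture, 9 dpp and 14 dpp. Mustn1, a small muscle nuclear protein, was at 24.4, 2.67, 368 and 786 CPM, and the small heat shock protein gene Cryab at 42.7, 18.7, 491 and 575 CPM. Nexn and Palld, for actin-binding proteins, were at 6.10 and 6.10 CPM in the short culture, which is 1 UMI each, and at 142 and 83.7 CPM at 9 dpp.

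The list on myosin phosphatase and calcium handling had 19 of 22 genes measured in the myoid gate, with 1 higher (5.14% of all genes) and 0 lower (6.72%) in the early pair and 0 higher (4.43%) and 1 lower (3.92%) in the late pair. In mural-like cells 6 and 4 of 15 were lower (14.1% and 9.03% of all genes). Ppp1r12b, a myosin phosphatase subunit, was lower in both pairs but reached the minimum of 50 UMIs only through the in vivo libraries, as other members of a list can, so the count is a description. Of 16 SRF and myocardin regulators measured in the gate, 0 were higher and 1 lower in the early pair and 1 higher and 0 lower in the late pair. The 10 nonmuscle actin and myosin genes gave 1 higher and 1 lower, then 0 and 0, and the same shares of all genes apply.

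Contraction receptors gave 1 higher and 1 lower of 9 in the early pair, where 5.14% and 6.72% of all genes were, and 2 and 2 in the late pair, where 4.43% and 3.92% were. The ATP-gated channel gene P2rx1 was at 0 and 0.42 CPM in the gate in culture and at 4.67 and 10.5 CPM in vivo, and it reached the minimum of UMIs only through the in vivo libraries. The receptor gene P2ry2, for a G protein-coupled receptor of the same ligand, was at 9.49 and 7.08 CPM in culture and 2.45 and 2.17 CPM in vivo. In mural-like cells the endothelin receptor gene Ednrb was at 421 and 74.8 CPM in culture and 117 and 10.2 CPM in vivo.

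In the myoid gate the medians of 2 lists lay further from 0 than those of the other 5. Genes that smooth muscle takes up when it loses its contractile state (such as Mgp, Ly6a and Vcam1) were higher for 8 of 14 and lower for 0 in the myoid gate in both pairs, where 5.14% and 4.43% of all genes were higher, with medians of 1.75 and 1.35. In mural-like cells Timp1, Dcn and Mgp, 3 of 9, were higher in both pairs (8.67% and 7.13% of all genes) and 1 and 0 lower, with medians of −0.52 and 0.22. Mgp, the matrix Gla protein, was at 5198 and 4321 CPM in the gate in culture and at 919 and 1110 CPM in vivo. Vcam1, an adhesion molecule, was at 506 and 430 CPM against 24.5 and 85.4 CPM, and Ly6a, a surface antigen, at 321 and 32.9 CPM against 0 and 0. Ly6a, Lgals3, Lum and Spp1 reached the minimum of UMIs only through culture, as Timp1 and Dcn did in mural-like cells, so both counts are a description. Of 16 such genes outside the gate 15 and 14 were higher, where 4.96% and 4.27% of all genes were. The list shares Dcn, Lum and the collagen genes Col1a1, Col1a2 and Col3a1 with the stromal markers. Of 9 striated muscle isoforms measured in the gate, 5 were lower in each pair (6.72% and 3.92% of all genes), 3 of them in both (Tnnt1, Tnnt2 and Tnnc2), and 0 and 1 were higher. Tnnc2 reached the minimum of UMIs only through the in vivo libraries. Tnnt2, the cardiac troponin T gene, was at 171 and 324 CPM in culture and 729 and 777 CPM in vivo, and Tnnt1, its slow skeletal relative, at 46.0 and 64.5 against 127 and 194 CPM. Tnnt2 also led the in vivo cluster that held the gated cells, and its part in the result was not tested. The 6 skeletal muscle markers, which include Tnnt1 and Tnni2, summed to 66.8, 133, 163 and 211 CPM in the gate in the order short culture, long culture, 9 dpp and 14 dpp. Ckm, Myod1 and Myog were at 0 in each library, and Acta1 had 1 UMI at 14 dpp.

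In the test between gates, 7 of 21 measured genes of the myosin phosphatase and calcium list were higher in mural cells and 0 lower, against 4.77% and 5.20% of all genes. Gucy1a1 and Gucy1b1, subunits of the nitric oxide receptor, were among them with log2 fold changes of 1.68 and 3.34, and Kcnmb1, a potassium channel subunit, with 2.05 (edgeR adjusted p = 4.9e-06, 9.3e-23 and 0.0056), higher in 3, 2 and 3 of 3 libraries. Among 10 contraction receptors 3 were higher and 0 lower, led by the angiotensin receptor gene Agtr1a at 6.54 (edgeR adjusted p = 2.4e-40, higher in 3 of 3 libraries). Contractile apparatus genes gave 7 higher and 4 lower of 29, led by Mustn1 at 5.23 (edgeR adjusted p = 7.5e-39, higher in 2 of 3 libraries). Genes that smooth muscle takes up when it loses its contractile state gave 0 higher and 6 lower of 12, with a median of −1.22. The stromal markers gave 0 higher and 9 lower of 12, with a median of −2.89, and their part in the results was not tested. Striated muscle isoforms gave 2 higher and 3 lower of 8, with Myl1 higher at 5.22 and Tnnc2 at 2.73 (edgeR adjusted p = 1.4e-17 and 2.3e-05, higher in 2 and 1 of 3 libraries). Tnni2 was lower by −8.72, Tnnt2 by −3.43 and Tnnt1 by −3.08 (edgeR adjusted p = 0.00077, 2.6e-12 and 5.6e-08), each lower in 3 of 3. Tnni2 was at 0 in the mural gate of each library tested, so the size of its fold change is not firm. These lists were chosen with earlier results of these data known, and the mural marker list holds both guanylate cyclase genes.

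The genes whose pattern was most like that of the 10 were found by the Pearson correlation of log2 CPM with their mean over 21 pools of 7 cell classes by library, which share libraries and depth, so no p is given. They were Sytl2 (r = 0.987), Carmn (0.968), Eln (0.967), Susd2 (0.963) and Tril (0.957). Carmn, a long noncoding RNA beside the Mir143 and Mir145 genes, was at 32.7 and 149 CPM in the myoid gate of the cultures and at 191 and 188 CPM in vivo. Eln, elastin, was at 534 and 671 CPM in culture and 1424 and 1122 CPM in vivo.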

How the data were processed

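The authors deposited raw UMI counts per gene and cell barcode, 4 matrices from Chromium Single Cell 3′ v2 libraries, made with Cell Ranger 3.0.2 on mm10 per the submitters' processing notes. Cell calling settings, annotation and strand are not given in the sources used here. Counts of 35 symbols with more than 1 row were added. The cell filter asked for 500 or more genes and a mitochondrial share of UMIs up to 20%, and Scrublet calls (expected rate 6%, 1.87% to 3.52% called) were removed, which left 23061 of 24851 barcodes.

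Gated cells were pooled per library. Ratios used 1 added CPM and genes whose 4 pools summed to 50 UMIs or more. Cells were clustered together (scanpy 1.11.5, leidenalg 0.10.2, resolution 1, 30 components, 20 neighbours) without the 10 genes and the 7 lists, and named from markers. The mural and myoid gates were tested with edgeR 4.0.16 (TMM, filterByExpr, Benjamini-Hochberg), with DESeq2 1.42.0 as an alternative. Both sums of a block come from the same library, and the libraries are different conditions. On simulated counts for this comparison, 10664 genes in size, the edgeR test recovered 4.40% of 2-fold and 49.0% of 4-fold changes, and 1.89% of calls were false. The simulated sums shared the same gene proportions apart from the set changes, with the same dispersion for every gene. They held no differences between libraries, so these rates do not carry over to the calls on the real sums.

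Named genes were the 10 and at most 5 per list and comparison, those past 2-fold in the same direction in both pairs with the largest smaller ratio, or those past an adjusted p of 0.05 with the largest fold change. The genes, lists and tests were chosen with earlier results of these data known. Alternatives covered the cell filter, doublets, gate, split, constant, scaling, weighting and left-out libraries.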

Additional observations from a re-analysis of the deposited data

Results flagged for a closer look

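Differences between groups of cells under the same contrast, in opposite directions, were found inside and outside the gate, and none of them was tested. In the early pair the log2 ratio was −0.88 in the myoid gate and 1.80 outside it for Acta2, −1.68 and 0.90 for Actg2, −1.25 and 1.12 for Myh11, −1.0 and 0.61 for Lmod1, −1.30 and 0.79 for Smtn, and −1.0 and 1.77 for Tpm2. In the late pair it was −0.56 and 1.12 for Acta2, −0.71 and 1.04 for Smtn, and −0.81 and 1.12 for Tpm2. The gate is cut on Acta2 and Myh11 themselves, and the share of cells near the cut differed between libraries as given above.

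The share of myoid-gated cells went in opposite directions in the 2 pairs, with log2 ratios of −0.27 in the early pair and 0.30 in the late pair. The difference between the pairs was not tested.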

How the results depend on the processing

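Few cells and UMIs stood behind the mural pools of culture. The share of myoid-gated cells in the early pair reversed to 0.12 with the gate at 0.15%, and was −1.10 at 0.6% and −0.64 with cells thinned before the split. In the late pair it was 0.45 and 0.052 at the same cuts. No share ratio of the mural gate could be given where culture held 0 cells. Over whole libraries, 1 gene was lower in the late pair with the stricter cell filter, 0.1 added, TMM factors or each cell weighted equally, and in the early pair 1 with 10 added and 4 with equal weighting. In the myoid gate 2 genes were lower in the early pair at 0.6%, and 1 in the late pair with the split by share of UMIs. Between 9 and 14 dpp 2 of 8 genes were lower in the mural gate, 1 on thinned cells, 1 with the split by share and 0 with equal weighting. The cause was not tested.

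For mural against myoid cells, 505 genes were higher and 550 lower, with 2141 at an unadjusted p under 0.05. Without the replicate block of library 299 were higher and 381 lower, with DESeq2 289 and 286, and with the gate at 0.15% 658 and 838. Leaving out 1 library gave 171 to 732 higher and 103 to 801 lower. Tpm2 reversed to 0.35 with the gate at 0.6%, 0.046 on thinned cells, 0.17 without the block and 0.17 without the long culture, and Smtn to −0.17 without 9 dpp. Leaving out 1 library gave −0.50 to 0.17 for Tpm2 and −0.17 to 0.52 for Smtn. Of 192 values of single genes in the myoid gate under the alternatives, 189 kept their sign, as did 108 of 110 in mural-like cells, 112 of 120 in whole libraries, 72 of 80 in the mural gate and 99 of 104 between gates.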
